A study of Mus musculus with 2 samples.

Results

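Non-cycling conventional CD4 T cells are donor helper-lineage T cells that carried CD4 transcript, carried no transcript of CD8 or of the regulatory factor Foxp3, and had few transcripts of cell division genes. They were chosen by their UMI counts (unique molecular identifiers, 1 per captured RNA molecule), barcode by barcode. Kept barcodes had 500 to 7500 genes detected and mitochondrial UMIs of at most 15%. Of these, a member had a Cd4 count of 1 or more, counts of 0 for Cd8a, Cd8b1 and Foxp3, a sum of 3 or more over the T cell genes Cd3d, Cd3e, Cd3g, Trac, Trbc1 and Trbc2, a sum under 5 over the macrophage genes C1qa, C1qb and C1qc, and a sum under 3 over the cycling genes Mki67, Top2a, Cdk1 and Pclaf. The members numbered 262 of 7179 kept cells in the day +7 library, a share of 3.65% [3.23, 4.11], and 485 of 7794 in the day +14 library, a share of 6.22% [5.70, 6.78]. Together they were 747 of 14973 cells. The share at day +14 lay above that at day +7, and the intervals did not overlap. The limits were set on raw UMI counts, and the members were shallower at day +14, with a median of 4318 UMIs against 6655. The share was not recomputed at equal depth, and the part of depth in the difference was not tested. Brackets hold 95% intervals throughout, which cover counting error only.

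The cells came from a model of acute graft-versus-host disease (aGvHD), in which lethally irradiated BALB/c mice received T cell-depleted bone marrow and splenic T cells from C57BL/6 donors (allo-HCT). The labels call the injected T cells naive, whereas the study's account of the sequenced cells does not. Live donor T cells were sorted from recipient spleens as TCRβ+ cells that carried CD45 and the donor antigen H2Kb and lacked the recipient antigen H2Kd, and were sequenced on the 10x Genomics platform. There were 2 libraries, from day +7 and day +14, both named PBS in the labels and neither given an inhibitor, and each was made from pooled suspensions of cells. H2Kb marks every cell of C57BL/6 origin, so T cells that arose from the donor marrow cannot be told apart from those that were injected. The labels describe a day +7 sort for both libraries, and the day used here is the one in each library's title. With 1 library per day there was no replicate, no test was made, and a difference between the days cannot be told apart from a difference between the libraries.

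CD4 T cells recognize peptides on MHC class II and act largely by directing other cells, through secreted cytokines and through surface ligands such as CD40L, which licenses dendritic cells and B cells. Activated cells take on programs named after their main factors and products. Th1 cells carry T-bet and interferon-γ, Th2 cells carry GATA-3 with IL-4 and IL-13, Th17 cells carry IL-17 and IL-22, follicular helper (Tfh) cells carry Bcl-6, CXCR5 and IL-21, and Tr1 cells carry IL-10 with c-Maf and inhibitory receptors. In allo-HCT, donor CD4 T cells that respond to recipient MHC are known drivers of aGvHD, and the Th1 program is prominent among them.

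The members had a median of 6655 UMIs and 1964 genes per cell at day +7 and of 4318 UMIs and 1642 genes at day +14, so the later cells were shallower. Non-cycling CD8 T cells of the same libraries, chosen by the same limits with Cd8a or Cd8b1 in place of Cd4 (2493 and 2425 cells), had medians of 6551 and 5337 UMIs. Levels are given as UMIs scaled to the summed UMIs of a group of cells (CPM, counts per 1000000), from 1879562 UMIs of members at day +7 and 2330779 at day +14. Shares of cells with a UMI of a gene were taken after each cell was thinned at random to 3000 UMIs, which left 260 and 390 members, 2461 and 2212 CD8 T cells and, as background, 139 and 60 kept barcodes with fewer than 3 T cell UMIs. The members that were too shallow for this were 2 at day +7 and 95 at day +14. The background barcodes had median depths of 10249 and 2595.5 UMIs before thinning. They were rich in myeloid transcripts, as given next, so a share found in them can come from other cells and not from free RNA alone. Summed myeloid genes stood at 19.2 and 68.2 CPM in members (41379 and 166690 CPM in the background barcodes), B and plasma cell genes at 160 and 69.1 CPM, nearly all of it Ighm, with Ms4a1 at 0 UMIs, and NK genes at 5.85 and 2.57 CPM. Erythroid genes stood at 4.26 and 396 CPM, most of the latter in 1 cell. Platelet genes had 0 UMIs at day +7 and 0.429 CPM at day +14, γδ T cell genes stood at 1.60 and 1.72 CPM with Trdc at 0, and dendritic cell genes at 11.7 and 12.0 CPM. The part of these transcripts in the results was not tested. The libraries shared 20 barcode sequences, of which 0 were members in both.

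Most members sat close to the Cd4 limit. At day +7, 126 members had 1 Cd4 UMI, 81 had 2, 28 had 3 and 27 had 4 or more, and at day +14 the numbers were 224, 134, 67 and 60. Among cells with 3 or more CD8 UMIs, which should hold no Cd4, a Cd4 UMI was present in 27 of 2154 (1.25% [0.828, 1.82]) at day +7 and in 79 of 2227 (3.55% [2.82, 4.4]) at day +14. Just outside the CD8 limit lay 23 and 75 cells that met every other limit and had 1 CD8 UMI. Of the members, 28 and 42 had 2 cycling UMIs, and 13 and 12 cells lay just outside with 3. No cell with 2 or 3 T cell UMIs met the other limits, and the members' medians of these UMIs were 48 and 41. Cells with 1 Foxp3 UMI and all else met numbered 3 and 5, and cells put out by the C1q limit numbered 3 and 2.

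The markers that chose or name the cells stood at 268 and 425 CPM for Cd4, 512 and 848 CPM for Cd3e and 578 and 906 CPM for Trac at day +7 and day +14, which describes the choice and tests nothing. The lineage label was then compared with genes that the choice of cells had not used. Zbtb7b, which encodes the ThPOK factor that commits thymocytes to the CD4 lineage, stood at 44.2 CPM [35.2, 54.7] in members and 18.3 CPM [16.4, 20.4] in CD8 T cells at day +7, and at 40.3 CPM [32.6, 49.4] and 9.17 CPM [7.65, 10.9] at day +14. Cd40lg, which encodes CD40L, stood at 115 CPM [101, 132] in members against 5.17 CPM [4.16, 6.35] in CD8 T cells at day +7, and at 91.4 CPM [79.5, 105] against 3.84 CPM [2.88, 5.01] at day +14. Runx3, the factor that sets the CD8 lineage and is also used by Th1 cells, was lower in members, with 129 CPM against 208 CPM at day +7 and 168 CPM against 293 CPM at day +14. Klrd1, which encodes the CD94 receptor of cytotoxic cells, stood at 309 CPM against 592 CPM and at 244 CPM against 409 CPM. The markers ThPOK and CD40L thus followed the label in both libraries, while Runx3 and Klrd1 were lower than in CD8 T cells and well above 0.

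The helper programs were examined one at a time, beginning with Th1. Tbx21, which encodes T-bet, stood at 45.8 CPM [36.6, 56.5] on day +7 and 48.9 CPM [40.3, 58.8] on day +14. Ifng, which encodes interferon-γ, stood at 178 CPM [160, 198] and 213 CPM [195, 233], close to the 227 and 215 CPM of CD8 T cells. A Ifng UMI was found in 32.7% [27.0, 38.8] of thinned members at day +7 and 29.0% [24.5, 33.8] at day +14, against 0.719% and 0% of background barcodes. The chemokine receptor gene Cxcr3 stood at 139 CPM [123, 157] and 205 CPM [187, 224], the receptor gene Cxcr6 at 316 CPM [291, 342] and 386 CPM [361, 412], and Stat4, which carries the IL-12 signal, at 154 CPM [137, 173] and 168 CPM [152, 186]. None of the 13 Th1 genes at a mean of 10 CPM or more was 2-fold higher or lower at day +14. This depended on the Cd4 limit, since with 3 Cd4 UMIs required Ifng, with a log2 ratio of 1.07, and Il18rap were 2-fold higher. The median log2 ratio of the 13 genes, day +14 over day +7, was 0.11, against 0.22 for all tested genes and -0.07 for the same genes in CD8 T cells, and it was 0.33 with 3 Cd4 UMIs required.

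Of the Th2 genes, Gata3 was found in many members, whereas Il13 at day +7 rested on very few. Gata3, with a UMI in 118 and 125 members, stood at 99.5 CPM [85.7, 115] on day +7 and 78.1 CPM [67.2, 90.3] on day +14, above the 60.5 and 49.7 CPM of CD8 T cells in each library. Il13 had 122 UMIs at day +7 and 0 at day +14, a level at least 50.4-fold lower with 3 UMIs taken as the floor. Of the 122 UMIs, 116 came from 1 cell of 14906 UMIs, which also held 13 UMIs of Il4, 117 of the chemokine gene Ccl1, 8 of Ifng and 6 of Gata3. Without that cell Il13 stood at 3.22 CPM at day +7, and with 3 Cd4 UMIs required of a member its log2 ratio was 0. Il1rl1, which encodes the IL-33 receptor ST2, stood at 36.2 CPM [28.1, 45.9] on day +7 and 21.9 CPM [16.3, 28.8] on day +14, higher than the 13 and 4.26 CPM of CD8 T cells.

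The cytokines of the Th17 program were not detected. Il17a and Il22 had 0 UMIs in the members of both libraries, which allows up to 1.60 CPM on day +7 and 1.29 CPM on day +14. Rora, a nuclear receptor gene that Th17 and other T cells use, rose from 56.9 CPM [46.7, 68.8] to 140 CPM [125, 156], and it rose likewise in CD8 T cells, from 55.1 to 135 CPM. Ahr, which encodes the aryl hydrocarbon receptor, fell from 22.3 CPM [16.1, 30.2] to 3.86 CPM [1.77, 7.33].

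The Tfh genes Bcl6, Cxcr5 and Il21 stood at low levels, whereas Icos and Pdcd1 were more abundant. Bcl6 stood at 5.32 CPM [2.55, 9.78] on day +7 and 9.87 CPM [6.26, 14.8] on day +14, and Cxcr5 at 14.9 CPM [9.90, 21.5] and 14.6 CPM [10.1, 20.4]. In CD8 T cells Cxcr5 stood at 0.574 and 4.19 CPM. Il21 rose from 10.1 CPM [6.09, 15.8] to 30.9 CPM [24.2, 38.9], a log2 ratio of 1.52 [0.87, 2.42], and was at 0.402 and 3.27 CPM in CD8 T cells. The call for Il21 was lost with more Cd4 UMIs required of a member, with a log2 ratio of 0.68 at 2 UMIs and 0.15 at 3. The share of thinned members with a Il21 UMI was 2.31% [0.851, 4.95] at day +7 and 6.92% [4.61, 9.91] at day +14, with no such barcode in the background. Icos, the costimulatory receptor gene that Tfh cells depend on, stood at 200 CPM [180, 221] and 275 CPM [255, 298], and Pdcd1, which encodes PD-1, at 164 CPM [147, 184] and 329 CPM [306, 353] with a log2 ratio of 1.00 [0.81, 1.20] just under the limit of a call. Of the 10 Tfh genes tested, Il21 alone was 2-fold higher at day +14 and 0 were lower. Without cells that hold a UMI of another lineage 6 were higher, Il21, Pdcd1, Tox2, Sh2d1a, Cd200 and Angptl2, and with 3 Cd4 UMIs required Cxcr5 was lower, with a log2 ratio of -1.29.

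**Figure D1:**
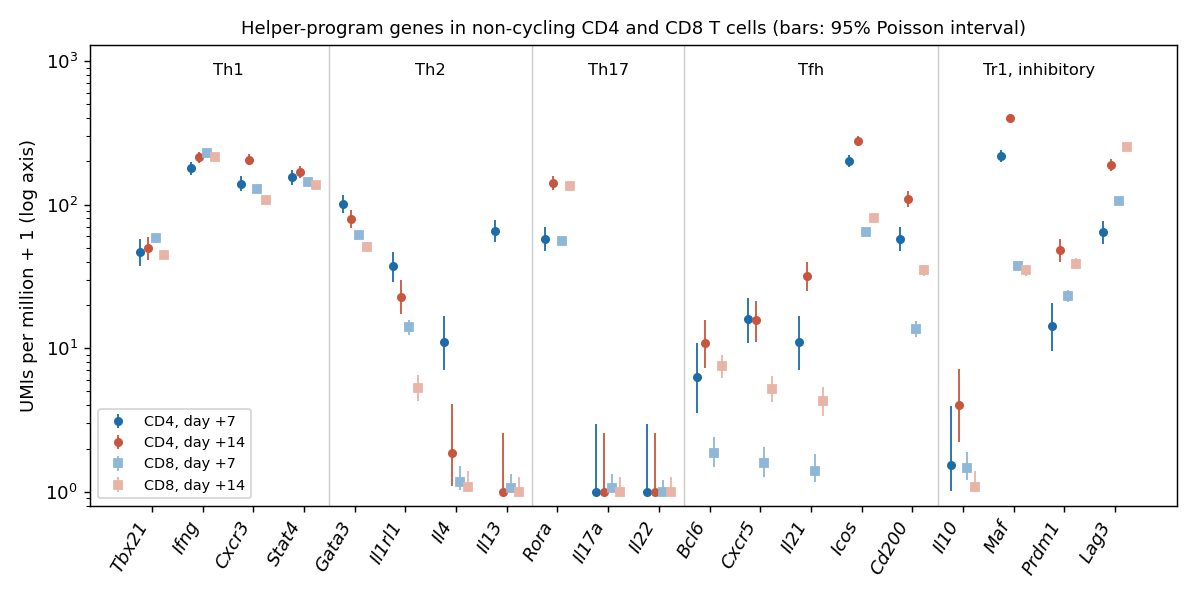
Levels of genes of 5 helper programs (CPM plus 1, log axis) in non-cycling CD4 T cells (circles) and CD8 T cells (squares) at day +7 and day +14, with 95% Poisson intervals as bars. Ifng lies near 200 in every group, Il17a and Il22 lie at the bottom of the axis, and Icos and Maf lie higher in CD4 than in CD8 T cells.

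Most genes of the inhibitory and Tr1 list lay higher at day +14, whereas Il10 itself was scarce. Il10 had 1 UMI at day +7 and 3.0 CPM [1.21, 6.19] at day +14. Maf, which encodes c-Maf, stood at 217 CPM [197, 239] and 403 CPM [378, 429] in members and at 36.1 and 34.0 CPM in CD8 T cells, so its log2 ratio of members over CD8 was 2.56 [2.41, 2.77] at day +7 and 3.53 [3.40, 3.73] at day +14. Eomes, a T-box factor, rose from 9.58 CPM [5.68, 15.1] to 59.6 CPM [50.1, 70.4], and Tox, a factor of chronically stimulated T cells, from 76.1 CPM [64.1, 89.6] to 291 CPM [269, 314]. Lag3, an inhibitory receptor that binds MHC class II, rose from 63.3 CPM [52.4, 75.8] to 188 CPM [171, 206], and its share of thinned members from 14.2% [10.2, 19.1] to 37.7% [32.9, 42.7], against 0.719% and 0% of background barcodes. Prdm1 and Cd160 also rose, with log2 ratios of 1.75 [1.19, 2.52] and 1.36 [1.02, 1.76], that of Cd160 being 0.36 with 3 Cd4 UMIs required. Havcr2, which encodes TIM-3, stood at 42.6 and 32.2 CPM and Ctla4 at 72.9 and 111 CPM, the latter with a log2 ratio of 1.34 when 3 Cd4 UMIs were required. Thus 5 of the 9 tested genes of this list were 2-fold higher at day +14 and 0 were lower, with a median of 1.36 against 0.22 for all tested genes and 0.75 for the same genes in CD8 T cells.

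Of the 9 tested genes of naive and central memory cells, 7 had a log2 ratio below 0 and 2 above. Klf2, a factor that keeps T cells in circulation, fell from 489 CPM [458, 522] to 206 CPM [188, 225], and S1pr1, the receptor by which T cells leave lymphoid organs, from 110 CPM [95.1, 126] to 48.9 CPM [40.3, 58.8]. Il7r, which encodes the receptor of the survival cytokine IL-7, fell from 127 CPM [111, 144] to 53.6 CPM [44.6, 63.9], though with 3 Cd4 UMIs required its log2 ratio was -0.44, short of 2-fold. The share of thinned members with a Klf2 UMI was 65.4% [59.3, 71.2] at day +7 and 27.4% [23.1, 32.2] at day +14 (13.7% and 33.3% of background barcodes, so that the later share was not above the background). Ccr7, the receptor by which T cells enter lymph nodes, was low on both days, at 11.7 and 6.86 CPM. Tcf7, which encodes the TCF-1 factor of naive and stem-like T cells, stood at 96.3 CPM [82.8, 111] and 88.8 CPM [77.1, 102]. Its log2 ratio was -0.12, but it ran from -0.97 with 3 Cd4 UMIs required to 0.37 without cells that hold a UMI of another lineage, so no direction can be given for it. Of the 9 tested genes 0 were 2-fold higher and 3 were lower. Their median was -0.82 [-1.84, 0.02] in members, an interval that includes 0, and -0.18 in CD8 T cells.

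Across all 6918 genes with a mean of 10 CPM or more over the 2 libraries, 556 (8.04%) were 2-fold or more higher at day +14 and 83 (1.2%) were 2-fold or more lower, and the counts within lists are to be read against these shares. Ratios were taken after 1 CPM was added, which draws low genes toward 0, so that a ratio can lie outside its interval. In all, 4709 genes lay above 0 and 2209 below, with a median of 0.22. Among the 1000 most abundant genes the median was -0.03, and in CD8 T cells it was 0.21 for the same 6918 genes. Of the 556 genes, 202 were also 2-fold higher in CD8 T cells, and 546 lay above 0 there. Of the 83 genes, 48 were also 2-fold lower in CD8 T cells, and 77 lay below 0 there. Nearly all calls thus had the same sign in both groups. The share of all 6918 genes past 2-fold in CD8 T cells is not given here.

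Products and ligands of helper cells were examined next, and chemokine genes had a high list median. Of 6 chemokine genes, 5 were 2-fold higher at day +14 and 0 were lower, with a median of 1.71. The median of the same genes was 1.00 in CD8 T cells and -0.07 in cycling conventional CD4 T cells. Ccl5, an attractant of effector T cells and monocytes, rose from 1694 CPM [1636, 1754] to 8012 CPM [7898, 8128], and from 39.2% [33.3, 45.5] to 75.4% [70.8, 79.6] of thinned members, against 5.76% and 30.0% of background barcodes. Ccl3 and Ccl4, inflammatory chemokine genes of the same family, rose from 129 to 419 CPM and from 308 to 677 CPM. Xcl1, the attractant of cross-presenting dendritic cells, rose from 80.3 CPM [68.0, 94.2] to 406 CPM [380, 433]. At day +7 1 cell of 7 with a Xcl1 UMI held 130 of the 151 UMIs, whereas at day +14 94 cells held Xcl1 and the highest had 312 of 946 UMIs. Without the top cell of each library Xcl1 stood at 11.3 and 273 CPM. Ccl1, which binds CCR8, stood at 413 CPM [385, 444] and 316 CPM [294, 340] and was held by few cells, 22 at day +7 and 32 at day +14, of which the 5 highest held 79.5% and 79.9% of its UMIs. Its log2 ratio of -0.39 became 5.09 with 3 Cd4 UMIs required.

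Among helper cytokines and ligands of the TNF family, 1 of 8 tested genes was 2-fold higher at day +14 and 0 were lower. With 2 or with 3 Cd4 UMIs required, and without cells that hold a UMI of another lineage, 3 were higher. With 3 Cd4 UMIs required 1 was also lower, Tnfsf14, with a log2 ratio of -1.17. Tnfsf14 had a ratio of 0.12 in the main choice and of 1.26 without other-lineage UMIs, so no direction can be given for it. Tnfsf11, which encodes RANKL, rose from 6.38 CPM [3.30, 11.2] to 33.0 CPM [26.1, 41.3]. Tnfsf8, which encodes CD30L, stood at 70.2 CPM [58.8, 83.3] and 125 CPM [111, 140], and Cd70, the ligand of CD27, at 27.1 CPM [20.2, 35.7] and 42.0 CPM [34.1, 51.2]. The log2 ratio of Tnfsf8 was 0.82, and 1.04 with 2 Cd4 UMIs required. That of Cd70 was 0.61, and 2.04 with 3 Cd4 UMIs required. Transcripts of the secreted growth factors were scarce. Il2 stood at 7.45 and 6.86 CPM, Csf2, which encodes GM-CSF, at 11.7 and 19.3 CPM, and Tnf at 14.9 and 18.9 CPM, in each library above the CD8 levels of 3.16 and 3.91, 4.65 and 7.46, and 4.19 and 8.17 CPM. Of the 5 genes of this list that could be compared with CD8 T cells, 3 were 2-fold higher in members in both libraries, with a median log2 ratio of 2.51 at day +7 and 2.81 at day +14.

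All 9 costimulatory receptor genes lay above 0 in the comparison of the days, and 1 passed 2-fold. Slamf1 was that gene, at 29.3 CPM [22.0, 38.1] and 68.2 CPM [58.0, 79.7], and its log2 ratio was 0.84 with thinned cells. Tnfrsf4, which encodes OX40, stood at 281 CPM [258, 306] and 562 CPM [532, 594], a log2 ratio of 1.00 [0.85, 1.15] just under the limit of a call, and was found in 43.5% [37.3, 49.7] and 61.3% [56.2, 66.1] of thinned members against 0% and 3.33% of background barcodes. Tnfrsf18, which encodes GITR, stood at 224 and 378 CPM and Cd28 at 199 and 267 CPM. With 3 Cd4 UMIs required 4 genes passed 2-fold, Tnfrsf4 (1.70), Tnfrsf18 (1.04), Tnfrsf9 and Slamf1. Among cytokine receptors, 1 of 10 genes was higher and 1 lower, and with 3 Cd4 UMIs required 4 were higher (Il10ra, Il2ra, Il4ra and Il6st) and 0 lower. Il10ra rose from 25 CPM [18.4, 33.3] to 59.6 CPM [50.1, 70.4] and Il7r was the gene that fell, whereas Il2ra, which encodes CD25, stood at 46.3 and 33.0 CPM (log2 ratio -0.47, but 1.57 with 3 Cd4 UMIs required) and Il2rb at 261 and 379 CPM.

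Homing genes split in direction. Cxcr4, the receptor that holds cells in bone marrow, rose from 8.51 CPM [4.87, 13.8] to 54.1 CPM [45.0, 64.4], and Ccr2, the receptor for inflamed tissue, fell from 72.4 CPM [60.7, 85.6] to 23.2 CPM [17.4, 30.2]. These were the calls among 11 genes, 1 in each direction. The gut-homing integrin chain Itgb7 stood at 246 CPM [224, 270] and 142 CPM [127, 158], and Itgal, the chain of LFA-1, at 171 CPM [153, 191] and 320 CPM [298, 344].

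All 11 tested genes of the TCR complex and its signalling, apart from those used to choose the cells, lay above 0, and 2 passed 2-fold. Fyn, a kinase of the TCR pathway, rose from 172 CPM [154, 192] to 381 CPM [356, 407], and Cd6 from 97.9 CPM [84.3, 113] to 201 CPM [183, 220]. With 3 Cd4 UMIs required neither passed 2-fold, with log2 ratios of 0.66 for Fyn and 0.97 for Cd6. Cd5, whose level is known to follow the strength of TCR signalling, stood at 126 CPM [111, 143] and 224 CPM [205, 244] in members and at 60.7 and 68.6 CPM in CD8 T cells. Of the 11 early genes that TCR signals induce, 2 were higher and 0 lower. Nr4a2 rose from 20.8 CPM [14.8, 28.4] to 91.8 CPM [79.9, 105] and Egr2 from 5.85 CPM [2.92, 10.5] to 23.2 CPM [17.4, 30.2], while Nr4a1 stood at 17.6 and 12.9 CPM and Fos at 25 and 12.4 CPM. In thinned cells Fos and Fosb were 2-fold lower, and with 2 Cd4 UMIs required Fos and Nr4a1 were. None of the 11 tested survival and death genes passed 2-fold. Of these 11 genes, 6 lay above 0 and 5 below. Bcl2 stood at 102 CPM [88.2, 118] and 166 CPM [150, 184]. Its log2 ratio was 0.70, and 1.06 without cells that hold a UMI of another lineage. Bcl2l11, which encodes the death inducer BIM, stood at 62.2 CPM [51.5, 74.6] and 43.8 CPM [35.7, 53.1]. Its log2 ratio was -0.50, but 0.41 with 3 Cd4 UMIs required, so no direction can be given for it.

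Of 9 cytotoxic genes compared with CD8 T cells, 3 were 2-fold lower in members in both libraries and 0 were higher, and granzyme genes changed in both directions between the days. Gzma fell from 488 CPM [457, 521] to 40.8 CPM [33.0, 49.8], and Gzmb from 369 CPM [342, 397] to 95.7 CPM [83.5, 109]. The log2 ratio of Gzma was -3.55, and -1.71 with 3 Cd4 UMIs required. Gzmk rose from 31.4 CPM [23.9, 40.5] to 191 CPM [174, 210], and from 7.69% [4.76, 11.6] to 31.3% [26.7, 36.1] of thinned members, against 0.719% and 0% of background barcodes. In CD8 T cells Gzmk stood at 127 and 154 CPM, a log2 ratio of 0.28 [0.19, 0.37], and the difference from the ratio of 2.57 [2.21, 3.02] in members was not tested. Crtam, a surface molecule of cytotoxic CD4 T cells, rose from 7.45 CPM [4.07, 12.5] to 40.8 CPM [33.0, 49.8]. Prf1, which encodes perforin, stood at 50.01 CPM [40.4, 61.2] and 53.6 CPM [44.6, 63.9]. In all, 2 of 10 cytotoxic genes were higher and 3 lower at day +14.

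**Figure D2:**
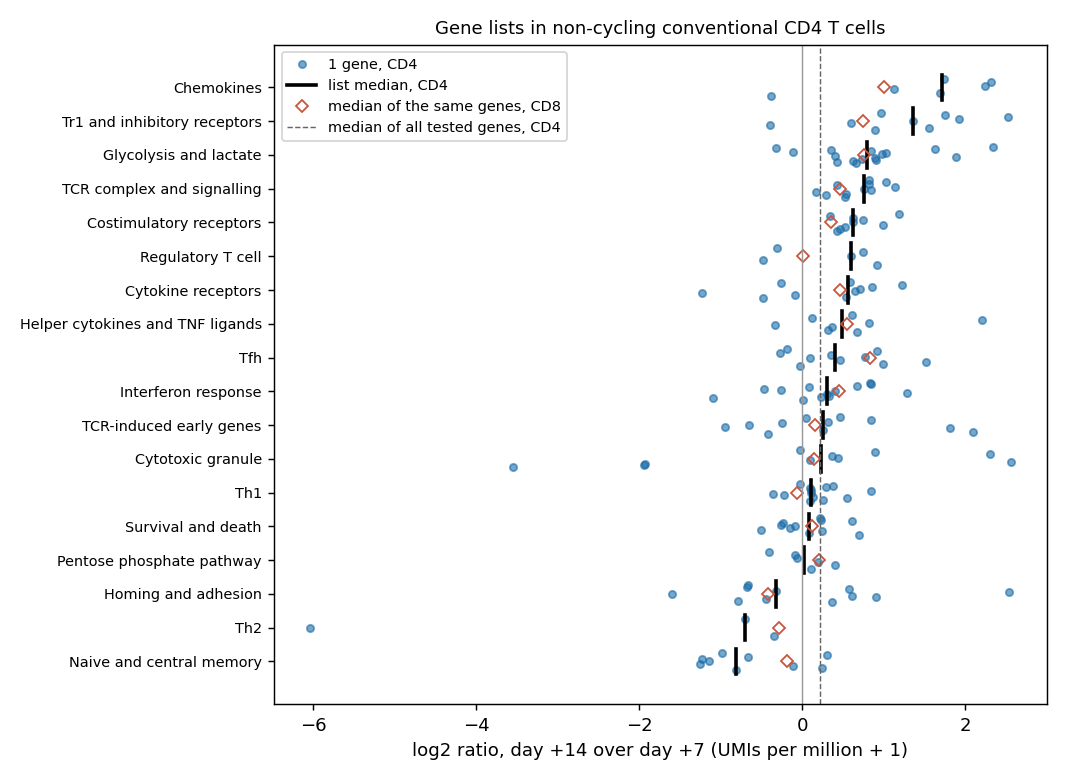
Log2 ratio of day +14 over day +7 (CPM plus 1) for each tested gene of 18 lists in non-cycling CD4 T cells, 1 dot per gene, with the list median as a bar and the median of the same genes in CD8 T cells as a diamond. Chemokines lie highest with a median of 1.71, naive and central memory genes lowest with -0.82, and the dashed line marks 0.22, the median of all tested genes.

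Metabolic genes were taken as 2 lists, since the study concerns the pentose phosphate pathway (PPP), which branches from glycolysis and supplies NADPH and ribose phosphate. Of the 16 tested glycolysis and lactate genes, 14 lay above 0, 4 were 2-fold higher at day +14 and 0 were lower, with a median of 0.79 in members and 0.75 in CD8 T cells. Tpi1, which encodes triosephosphate isomerase, rose from 109 CPM [94.6, 125] to 405 CPM [379, 431], the lactate exporter gene Slc16a3 from 6.38 CPM [3.30, 11.2] to 36.5 CPM [29.1, 45.1], and the glucose transporter gene Slc2a1 from 10.1 CPM [6.09, 15.8] to 33.5 CPM [26.5, 41.8]. The last of the 4 was Pgam1, from 127 CPM [112, 144] to 260 CPM [240, 282], with a log2 ratio of 0.89 in thinned cells. Gapdh stood at 1408 and 1856 CPM, Ldha at 546 and 698 CPM, and Eno1 at 105 and 97.0 CPM. None of the 6 tested PPP genes passed 2-fold, and their median was 0.02 in members and 0.20 in CD8 T cells. Pgd, which encodes 6PGD, stood at 30.3 CPM [23.0, 39.3] on day +7 and 40.3 CPM [32.6, 49.4] on day +14, intervals that overlap. G6pdx, which encodes the first enzyme of the oxidative branch, stood at 8.51 CPM [4.87, 13.8] and 10.7 CPM [6.94, 15.8], and Taldo1 and Tkt, of the non-oxidative branch, at 297 and 225 CPM and at 143 and 134 CPM. A Pgd UMI was found in 10.8% and 13.3% of thinned members and in 33.1% and 55.0% of background barcodes, so these shares of cells were not above the background. Summed PPP genes stood at 1638 and 2129 CPM in those barcodes, against 732 and 680 CPM in members. The comparison therefore cannot show whether the Pgd UMIs of members are background. Against cycling conventional CD4 T cells of the same libraries (194 and 209 cells with 3 or more cycling UMIs), the members lay lower in both lists, with median log2 ratios of -0.39 at day +7 and -0.34 at day +14 for glycolysis and of -0.25 and -0.27 for the PPP.

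Interferon response genes did not share a direction. Of 13 tested genes, 1 was 2-fold higher at day +14 and 1 was lower, counts that ran from 0 to 3 and from 0 to 2 over the alternatives. Isg15, which encodes a ubiquitin-like protein, fell from 91.0 CPM [77.9, 106] to 42.0 CPM [34.1, 51.2], with a log2 ratio of -0.84 in thinned cells. In CD8 T cells Isg15 stood at 29.8 and 36.9 CPM. Ifi27l2a was the most abundant gene of the list, at 2819 CPM [2744, 2896] and 2041 CPM [1983, 2100], and lay above the 946 and 775 CPM of CD8 T cells in both libraries.

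The comparison of members with non-cycling CD8 T cells was made within each library, where both groups passed through the same sort and droplets. Of 6263 genes tested, 65 (1.04%) were 2-fold or more higher in members in both libraries and 30 (0.479%) were lower in both. The genes with the highest ratios were Lgals7, Cd40lg, Ccl1, Tnfrsf4, Izumo1r, Maf, Tnfsf8, Podnl1, Cd200 and Rgs10, and those with the lowest were Gzma, Wdr95, Prf1, Tm6sf1, Klrk1, Cd160, Klrc1, Gzmb, Klrc2 and Ube2c. Of the first 10, Cd40lg, Tnfsf8 and Tnfrsf4 encode a ligand or receptor of the TNF family and Cd200 a surface ligand of Tfh cells. Of the other 10, Klrk1, Klrc1 and Klrc2 encode lectin receptors of the NKG2 family and Gzma, Gzmb and Prf1 contents of cytotoxic granules.

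Lgals7, which encodes galectin-7, had the highest ratio of these genes. It stood at 76.1 CPM [64.1, 89.6] in members and 2.70 CPM [1.98, 3.59] in CD8 T cells at day +7, and at 89.7 CPM [77.9, 103] and 1.92 CPM [1.26, 2.79] at day +14. The log2 ratios were 4.38 [4.33, 5.32] and 4.96 [4.96, 6.18]. Its UMIs lay in 40 and 50 members, and the highest cell held 20 of 143 UMIs at day +7 and 17 of 209 at day +14. The gene lies at chr7:28863853-28866284 on the plus strand (GRCm38, GENCODE M21).

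Izumo1r, which encodes the folate receptor 4 known from regulatory and Tfh cells, stood at 70.8 CPM [59.2, 83.9] in members and 4.65 CPM [3.69, 5.78] in CD8 T cells at day +7, and at 240 CPM [220, 261] and 31.8 CPM [28.9, 34.8] at day +14. It was found in 9.23% [6.00, 13.4] and 41.0% [36.1, 46.1] of thinned members, with no such barcode in the background, so it rose in members while remaining several-fold higher there than in CD8 T cells. Cd40lg was found in 26.9% [21.6, 32.8] and 20.3% [16.4, 24.6] of thinned members, in 1.22% and 0.995% of CD8 T cells and in 0% of background barcodes. Maf was found in 42.7% [36.6, 49.0] and 54.9% [49.8, 59.9] of members, in 8.65% and 7.46% of CD8 T cells and in 10.8% and 1.67% of background barcodes. For Ccl1 the ratio of 4.26 [4.15, 4.51] at day +7 rested on few cells, and it was -0.60 when a member needed 3 Cd4 UMIs, a choice that left 55 of the 262 cells.

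Klrk1, which encodes the activating receptor NKG2D, stood at 43.1 CPM [34.2, 53.6] in members and 186 CPM [180, 192] in CD8 T cells at day +7, and at 39.0 CPM [31.4, 47.9] and 126 CPM [120, 132] at day +14. Prf1 had log2 ratios of -1.84 [-2.17, -1.56] and -1.92 [-2.21, -1.68], and Gzmb of -1.51 [-1.62, -1.40] and -2.39 [-2.60, -2.21]. Nkg7, a membrane protein of cytotoxic granules, was nevertheless among the most abundant transcripts of members, at 1465 CPM [1410, 1520] and 1984 CPM [1927, 2042], and was found in 83.5% [78.4, 87.8] and 87.9% [84.3, 91.0] of them, against 98.9% and 99.2% of CD8 T cells and 4.32% and 15% of background barcodes.

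**Figure D3:**
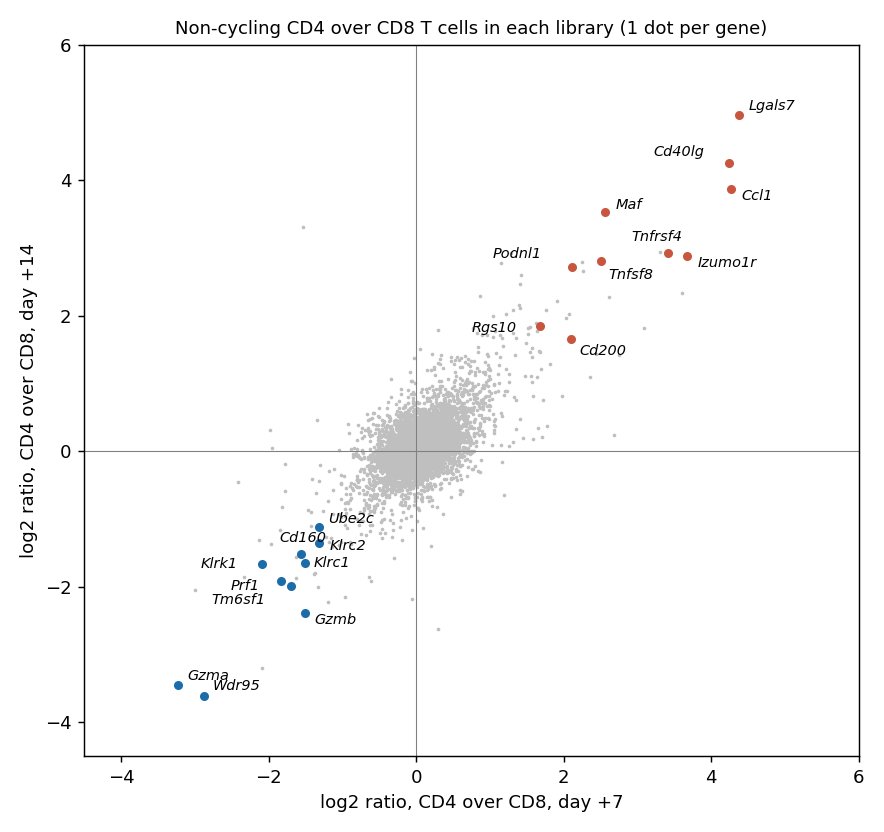
Log2 ratio of non-cycling CD4 over CD8 T cells (CPM plus 1) at day +7 (horizontal axis) against day +14 (vertical axis), 1 dot per gene, with the 10 highest and 10 lowest genes of the naming rule in color. Lgals7, Cd40lg and Ccl1 lie highest, between 3.87 and 4.96, and Gzma and Wdr95 lie lowest.

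**Figure D4:**
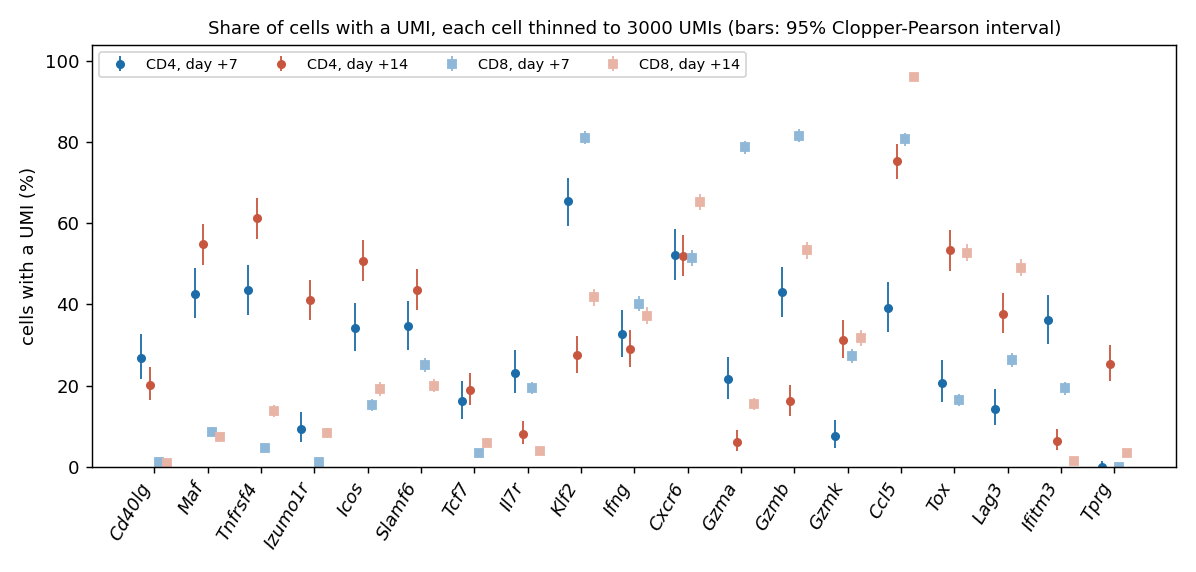
Share of cells with a UMI (%), after thinning of each cell to 3000 UMIs, in CD4 T cells (circles) and CD8 T cells (squares) at each day, with 95% Clopper-Pearson intervals as bars. Cd40lg, Maf and Tnfrsf4 are found in more CD4 than CD8 T cells on both days, and Gzma, Gzmb and Ccl5 in fewer.

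The genes with the highest and lowest ratios between the days were a mixed set. Tprg, a gene of little-known function at chr16:25286817-25422344 on the plus strand, had 0 UMIs at day +7 and 271 at day +14, in 157 cells with at most 6 each, a level at least 72.8-fold higher with 3 UMIs as the floor. It stood at 0.115 and 15.3 CPM in CD8 T cells. Cd81, which encodes a tetraspanin, rose from 7.98 CPM [4.47, 13.2] to 145 CPM [130, 162] and was found in 148 cells at day +14. A Cd81 UMI was also found in 53.2% and 16.7% of thinned background barcodes. Tiam1, an activator of the GTPase Rac, rose from 3.72 CPM [1.5, 7.67] to 63.9 CPM [54.1, 75.1], and Ramp1, a subunit of the receptor for the neuropeptide CGRP, from 2.13 CPM [0.580, 5.45] to 55.8 CPM [46.6, 66.2]. Esm1, which encodes a secreted proteoglycan, rose from 4.79 CPM [2.19, 9.09] to 50.6 CPM [41.9, 60.6].

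Peptide hormone genes were among the 10 highest. Gcg, which encodes proglucagon, stood at 14.4 CPM [9.47, 20.9] at day +7, where 4 cells held its 27 UMIs and 1 cell 21 of them, and at 230 CPM [211, 251] at day +14, where 37 cells held 537 UMIs and the highest had 76. Without the top cell of each library Gcg stood at 3.21 and 198 CPM. In CD8 T cells it stood at 1.95 and 2.70 CPM. Penk, which encodes proenkephalin, the precursor of opioid peptides, rose from 9.04 CPM [5.27, 14.5] in 3 cells to 147 CPM [132, 163] in 55 cells. A Gcg UMI was found in 7.69% [5.25, 10.8] of thinned members at day +14 and in 0% of background barcodes, which allows up to 5.0%. The other places were held by hemoglobin genes (Hbb-bs, Hba-a1 with Hba-a2), and 577 of 589 Hbb-bs UMIs lay in 1 cell of 9268 UMIs. Without that cell Hbb-bs stood at 5.17 CPM at day +14.

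The neighbouring genes Ifitm1, Ifitm2 and Ifitm3, which encode membrane proteins that restrict virus entry, were among the 10 lowest. They lie at chr7:140967221-140969825 on the plus strand, chr7:140954837-140955987 on the minus strand and chr7:141009586-141010770 on the minus strand. Ifitm1 fell from 775 CPM [736, 816] to 11.2 CPM [7.29, 16.3], and from 58 cells to 6. Ifitm2 fell from 723 CPM [685, 762] to 61.8 CPM [52.1, 72.7] and Ifitm3 from 609 CPM [574, 646] to 35.6 CPM [28.4, 44.1]. In CD8 T cells Ifitm1 stood at a like level at day +7, 805 CPM, whereas Ifitm2 and Ifitm3 stood at 269 and 161 CPM, and all 3 were 2-fold lower there at day +14. The thinned share of members with a Ifitm3 UMI was 36.2% [30.3, 42.3] at day +7 and 6.41% [4.19, 9.32] at day +14, but the background shares were 85.6% and 85.0%. Ggt1, an enzyme of glutathione turnover, fell from 71.3 CPM [59.7, 84.4] to 6.44 CPM [3.60, 10.6], and Dtx1, a Notch pathway gene, from 57.5 CPM [47.1, 69.4] to 7.72 CPM [4.58, 12.2]. AA467197 and Rom1 fell by 2.10 and 1.99 on the log2 scale.

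Cycling conventional CD4 T cells, which are separate cells of the same libraries, also passed 2-fold in the same direction for the genes given first here. Tprg stood there at 1.41 and 37.2 CPM, Gcg at 0.352 and 142 CPM, Penk at 7.04 and 88.9 CPM, and Esm1 at 4.93 and 48.0 CPM. Ifitm1 stood at 610 and 0.372 CPM, Gzma at 389 and 36.1 CPM, and Gzmb at 575 and 84.5 CPM. The chemokine genes, with a list median of 1.71 in the members, had one of -0.07 in cycling cells. Lag3, which rose in the members, stood at 49.99 and 38.3 CPM in cycling cells, and Maf, at 217 and 403 CPM in the members, stood there at 155 and 150 CPM. Ccl1 stood at 325 and 72.6 CPM in cycling cells, a fall of more than 2-fold. The share of cycling cells among conventional CD4 T cells was 42.5% [38, 47.2] at day +7 and 30.1% [26.7, 33.7] at day +14, at a median depth of 12906 and 12028 UMIs, well above that of the members.

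How evenly a gene was spread over the members differed from gene to gene. At day +7, the 10 cells with most Maf held 15.9% of its UMIs, the 10 with most Cd40lg held 21.2%, and the 10 with most Tnfrsf4 held 34.0%. The same number of cells held 43.1% for Tcf7, 67.8% for Lgals7 and 95.8% for Ccl1. At day +14, with more members, 10 cells held 11.9% for Maf, 18.8% for Cd40lg, 15.3% for Tnfrsf4, 25.1% for Tcf7, 53.6% for Lgals7 and 83.4% for Gcg. Maf, Cd40lg and Tnfrsf4 were thus spread over more members than Ccl1 and Gcg, whereas Ccl5, also a chemokine gene, was found in 137 members at day +7 and 415 at day +14.

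**Figure D5:**
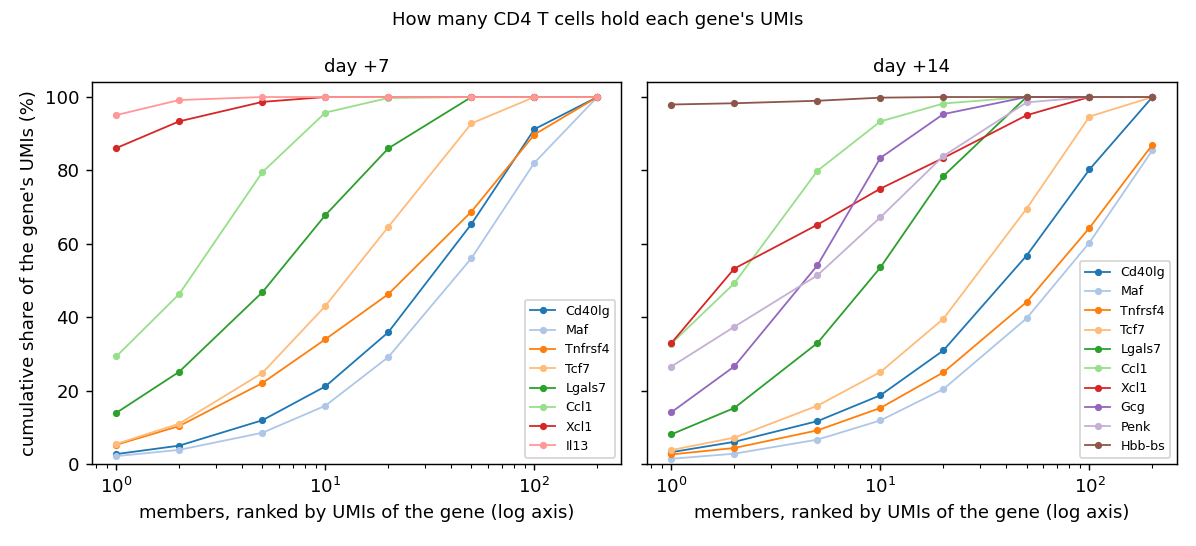
Cumulative share (%) of a gene's UMIs held by the members with most UMIs of it (number of members, log axis), at day +7 on the left and day +14 on the right. Il13 at day +7 and Hbb-bs at day +14 are held almost whole by 1 cell, Ccl1 by about 10, and Maf and Cd40lg are spread over more than 100.

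The members were also divided by single genes, as a description, on the thinned counts. Of them, 42 of 260 at day +7 and 74 of 390 at day +14 had a Tcf7 UMI. At day +7 Slamf6, a receptor shared by stem-like and Tfh cells, was found in 59.5% [43.3, 74.4] of cells with Tcf7 and in 29.8% [23.8, 36.4] of cells without, and Id3, a factor of the same cells, in 38.1% [23.6, 54.4] and 10.6% [6.81, 15.4]. Cxcr5 was found in 11.9% [3.98, 25.6] and 1.83% [0.502, 4.63], intervals that overlap. At day +14 the shares for Slamf6 were 74.3% [62.8, 83.8] and 36.4% [31.1, 42.0], for Id3 28.4% [18.5, 40.1] and 4.43% [2.44, 7.32], and for Cxcr5 14.9% [7.66, 25] and 1.27% [0.346, 3.21]. In background barcodes Id3, Cxcr5 and Tcf7 were in 0% on both days, and Slamf6 in 0% and 3.33%.

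Several effector genes were found in smaller shares of cells with Tcf7 on both days. Gzmb was found in 9.52% [2.66, 22.6] of members with Tcf7 and 49.5% [42.7, 56.4] without at day +7, and in 4.05% [0.844, 11.4] and 19% [14.8, 23.8] at day +14. Cxcr6 was found in 19% [8.60, 34.1] and 58.7% [51.9, 65.3] at day +7, and in 18.9% [10.7, 29.7] and 59.8% [54.2, 65.3] at day +14. Ifng was found in 16.7% [6.97, 31.4] and 35.8% [29.4, 42.5] at day +7, and in 12.2% [5.71, 21.8] and 32.9% [27.8, 38.4] at day +14, with intervals that overlap at day +7. Nkg7 was found in 47.6% [32.0, 63.6] and 90.4% [85.7, 93.9] at day +7, and in 77.0% [65.8, 86.0] and 90.5% [86.7, 93.5] at day +14, and Ccl5 in 19% [8.60, 34.1] and 43.1% [36.4, 49.98], then in 60.8% [48.8, 72.0] and 78.8% [73.9, 83.2]. Other genes did not follow this order on both days. Lag3 was found in 14.3% [5.43, 28.5] of cells with Tcf7 and 14.2% [9.87, 19.6] without at day +7, and in 16.2% [8.67, 26.6] and 42.7% [37.2, 48.4] at day +14. Gzmk was found in 7.14% [1.5, 19.48] and 7.80% [4.61, 12.2] at day +7 and in 44.6% [33.0, 56.6] and 28.2% [23.3, 33.5] at day +14, and Eomes in 4.76% [0.582, 16.2] and 2.75% [1.02, 5.89], then in 23.0% [14.0, 34.2] and 10.8% [7.57, 14.7], with intervals that overlap for both genes on both days. Gzma was found in 9.52% [2.66, 22.6] and 23.9% [18.4, 30.1] at day +7, and in 8.11% [3.03, 16.8] and 5.70% [3.41, 8.85] at day +14, with intervals that overlap on both days. Among cells with a Ifng UMI at day +14, 57.5% [47.9, 66.8] also had Lag3, against 29.6% [24.3, 35.4] of those without.

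Members were also divided by Lgals7, which 32 of 390 thinned cells had at day +14. Ccl1 was found in 34.4% [18.6, 53.2] of them and in 3.91% [2.15, 6.47] of the others, and Gata3 in 43.8% [26.4, 62.3] and 17.0% [13.3, 21.3]. Gzmk was found in 0 of the 32 cells and in 34.1% [29.2, 39.2] of the others, and Ccl5 in 43.8% [26.4, 62.3] and 78.2% [73.6, 82.4]. Ifitm2, low in most members by then, was found in 34.4% [18.6, 53.2] of cells with Lgals7 and 6.98% [4.57, 10.1] of cells without. At day +7, with 25 of 260 cells, Ccl1 was found in 12.0% [2.55, 31.2] and 5.96% [3.29, 9.79] and Gata3 in 36.0% [18.0, 57.5] and 22.6% [17.4, 28.4], intervals that overlap. Gzmk was found then in 4.0% [0.101, 20.4] of cells with Lgals7 and 8.09% [4.94, 12.3] of cells without. The day +7 shares were 28.0% [12.1, 49.4] and 40.4% [34.1, 47.0] for Ccl5, and 56.0% [34.9, 75.6] and 38.7% [32.5, 45.3] for Ifitm2. These intervals overlap as well.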

How the data were processed

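Sorted donor T cells of 2 libraries, day +7 and day +14, were analysed. The deposited values are whole UMI counts per gene and barcode, without normalization, which the authors made with Cell Ranger 6.1.2, and the submitters' processing notes name build mm10. The accompanying lists of genes and barcodes carry no measured values. Of the 32285 genes listed, 40 repeat the symbol of an earlier entry and were left out of the comparisons, while their UMIs stayed in the totals. The annotation version is not given in the sources used here. Positions come from GENCODE M21 (GRCm38).

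The members, the gene lists and the rule for named genes were chosen with earlier results of these data known. UMIs were summed per library and group, scaled to CPM, and compared as log2 ratios with 1 CPM added, where the gene's mean reached 10 CPM. Called means a ratio of 2-fold or more. Named genes were up to 6 with most UMIs in each of 28 lists, those that define a helper type, and the 10 highest and 10 lowest ratios between the days and, by the smaller ratio of both libraries, over CD8 T cells, at 50 CPM or more in the higher group, leaving out genes of the rule, mt-, Rpl, Rps, receptor segment, model, Xist and Y-linked genes. Other list members are named where they passed 2-fold, which was decided after their values were seen, as was the choice of genes in the divisions of members. Intervals at 95% are exact Poisson for CPM, exact conditional binomial for ratios and Clopper-Pearson for shares, and the floor is 3 UMIs per group. UMIs of 1 cell are not independent, so these intervals are too narrow for genes held by few cells. No test was made, as there was 1 library per day. Scrublet called 0 barcodes in either library, so its own threshold did not work and barcodes with the highest scores (433 and 518, with 4 and 7 members) were left out as an alternative. Calculations were tested on simulated data. Tools were Python 3.11.15, numpy 2.4.6, scipy 1.17.1, pandas 2.3.3, scanpy 1.11.5, anndata 0.12.19 and matplotlib 3.10.9. Alternatives numbered 13 planned and 1 added after the data were seen, without cells of 3 or more hemoglobin UMIs. Some genes of the lists are not reported here.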

Additional observations from a re-analysis of the deposited data

Results flagged for a closer look

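Esm1 moved in opposite directions in the CD4 and CD8 T cells of the same libraries. Its log2 ratio of day +14 over day +7 was 3.16 [2.43, 4.57] in non-cycling conventional CD4 T cells, where it stood at 4.79 and 50.6 CPM, and -1.69 [-2.34, -1.50] in non-cycling CD8 T cells, where it stood at 15.8 and 4.19 CPM. The difference was not tested, since each day has 1 library. At day +14 the Esm1 UMIs of the CD4 T cells lay in 69 cells with at most 5 each, and in cycling conventional CD4 T cells the ratio was 3.05 [2.49, 4.2].

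Isg15 also had ratios of opposite sign. Its log2 ratio of day +14 over day +7 was -1.10 [-1.49, -0.75] in the CD4 T cells, where it stood at 91.0 and 42.0 CPM, and 0.30 [0.13, 0.49] in the CD8 T cells, where it stood at 29.8 and 36.9 CPM. The interval in CD8 T cells held 0.21, the median there of all 6918 tested genes. In the CD4 T cells the call was lost with thinned cells (-0.84) and with CPM averaged over single cells (-0.91). It was also lost without cells that hold a UMI of another lineage (-0.97). The difference between the CD4 and CD8 T cells was not tested either.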

How the results depend on the processing

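No paired analysis was possible because each day has 1 library. The share of members at day +7 and day +14 was 1.89% and 3.35% with 2 Cd4 UMIs required, 0.766% and 1.63% with 3, 1.67% and 3.40% without cells that hold a UMI of another lineage, and 2.33% and 4.12% with 0 cycling UMIs, and it lay higher at day +14 in each case. None of these choices put the libraries at equal depth. The 556 genes higher at day +14 became 908 with 3 Cd4 UMIs required, 850 without cells with UMIs of another lineage, 350 with 5 CPM added, 1534 at a mean of 1 CPM and 108 at a mean of 50 CPM. The 83 genes lower became 200 with 3 Cd4 UMIs, 156 without other-lineage UMIs, 150 with thinned cells, 311 at 1 CPM and 30 at 50 CPM. Genes higher in CD4 than CD8 T cells in both libraries (65) became 188 and 16 at means of 1 and 50 CPM, and genes lower (30) became 84 and 7. The share of higher genes among calls was 87.0%, and it ran from 78.3% to 87.9%. Among ratios past 2-fold and list medians whose interval left out 0, a sign turned for Ccl1 in CD4 over CD8 T cells at day +7 (-0.60 with 3 Cd4 UMIs) and for the median of cytokine receptors between the days (-0.0912 at a mean of 50 CPM). The causes were not tested. The median of chemokine genes was above that of the Tr1 and inhibitory list (1.71 and 1.36), but below it without other-lineage UMIs (1.34 and 1.63). Of 59 named or listed genes past 2-fold between the days, 41 kept the call under each of the 12 alternatives that can move a ratio, and 18 lost it under 1 or more, such as Slc2a1 (0.99 with thinned cells). Of 92 short of 2-fold, 23 passed it under 1 or more, 14 of them with 3 Cd4 UMIs required, a choice that left 55 cells at day +7. Counting each gene under each alternative, 1622 ratios between the days stayed within the interval and 190 moved out of it, 414 and 65 over CD8 T cells, and 275 and 4 list medians. Depth limits the rarest genes, since 3 UMIs are 1.60 CPM at day +7 and 1.29 CPM at day +14, and the 262 and 485 cells limit any gene held by few of them.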

Other observations

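The β-chain variable segments of the T cell receptor were counted in the members as a further description. Their UMIs numbered 92 at day +7 and 114 at day +14, so each share is wide. Trbv2 made up 17.4% [10.3, 26.7] of them at day +7 and 26.3% [18.5, 35.4] at day +14, Trbv13-2 10.9% [5.34, 19.1] and 18.4% [11.8, 26.8], and Trbv12-2 9.78% [4.57, 17.8] and 16.7% [10.3, 24.8]. Other segments had lower shares at day +14. Trbv16 made up 15.2% [8.58, 24.2] and 7.02% [3.08, 13.4], Trbv26 7.61% and 2.63%, and Trbv20 6.52% and 0%. In CD8 T cells Trbv13-2 made up 9.45% and 4.81% of 751 and 727 UMIs. Trbv17 had 0 of 92 UMIs at day +7, which allows up to 3.93%, and 4.39% [1.44, 9.94] at day +14, against 5.99% and 17.1% in CD8 T cells. Trbv29 had 1 UMI at day +7 and 0 at day +14, against 9.99% and 7.70% in CD8 T cells. UMIs of 1 cell share a receptor, and clones were not followed here.

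Genes of regulatory T cells other than Foxp3 were present in members, which were chosen without a Foxp3 UMI. Ikzf2, which encodes Helios, stood at 43.1 CPM [34.2, 53.6] on day +7 and 82.4 CPM [71.1, 94.9] on day +14, against 18.7 and 92.0 CPM in CD8 T cells. Capg stood at 257 and 208 CPM, against 263 and 79.7 CPM. Of the 5 tested genes of this list 0 passed 2-fold between the days, with a median of 0.60. Ikzf2, at a log2 ratio of 0.92, passed it without cells that hold a UMI of another lineage (1.59) and with 3 Cd4 UMIs required (1.37). It also passed with 0 cycling UMIs (1.10) and with thinned cells (1.10). Ctla4 passed it with 3 Cd4 UMIs required (1.34). Cells with a Foxp3 UMI numbered 20 and 14, too few for a profile of their own.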
